A study of Mus musculus with 2 samples.

Results

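Cluster 15 (C15) is the monocyte cluster of a CITE-seq map of splenic dendritic cells (DCs). It holds the 197 cells that carry the cluster number 15 in the deposited metadata, out of 24343 cells in all. In CITE-seq the transcripts of a cell are counted as unique molecular identifiers (UMIs), together with barcoded antibody tags on its surface. Live MHCII+CD11c+ cells were sorted from T and B cell-depleted spleens of 8-week-old female C57BL/6 mice that were wildtype (WT) or Batf3-/-, a genotype that lacks the transcription factor Batf3 in every cell. WT mice came from a supplier and Batf3-/- mice from an in-house colony, so genotype and origin of the mice cannot be told apart. For each genotype 6 mice were pooled into 1 library, without a repeat. With n = 1 library per genotype no test between genotypes was possible, and cells are not replicates. All 95% intervals given here cover counting error only.

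Monocytes are circulating myeloid cells that depend on the receptor for colony-stimulating factor 1 and that also rest in the spleen. Classical monocytes carry Ly6C and the chemokine receptor Ccr2 and leave the blood for tissue, whereas nonclassical monocytes need the nuclear receptor Nr4a1 and the factor C/EBPβ and patrol the vessel wall. The cDC2b subset of conventional DCs shares Csf1r, Lyz2 and Cx3cr1 transcripts with monocytes, and C15 is therefore described beside cDC2b, which the study placed in clusters 2 and 11 (C2 and C11).

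C15 contained 145 WT and 52 Batf3-/- cells. These were 1.19% of the WT library (95% interval 1.00 to 1.39) and 0.429% of the Batf3-/- library (0.321 to 0.562). Of the C15 cells 73.6% were WT (66.9 to 79.6), beside 50.2% of all cells. The sort gate on MHCII and CD11c sets which monocytes could enter, and its part in these shares was not tested. With the cDC1 clusters, which hold fewer cells in the Batf3-/- library, left out of the denominator, the shares were 145 of 8665 cells (1.67%) and 52 of 11327 cells (0.459%). The cDC2b comparison cells numbered 1130 in WT and 1771 in Batf3-/-.

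The C15 cells held 1146370 UMIs in WT and 436038 in Batf3-/-. The median cell had 6151 UMIs in WT (range 1575 to 31622) and 8056 in Batf3-/- (range 3005 to 20202). The cDC2b medians were 8426 and 9402. The median share of UMIs on ribosomal protein genes was 19.3% and 18.5% in C15 and 25.9% and 27.3% in cDC2b, and the mitochondrial share was 3.36% and 3.26% in C15. A doublet caller run on each library marked 12 WT cells and 1 Batf3-/- cell of C15. No marked cell was removed. Both libraries shared 56 cell barcodes, of which 2 belonged to C15 cells, and neither partner was in C15.

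The label was checked against the monocyte markers Lyz2, Csf1r and Cx3cr1. The clusters were built from the same transcripts, so these levels describe C15 and test nothing. Levels (CPM) are the UMIs of a gene summed over the cells of a cluster and library, counted per 1000000 UMIs of those cells. Lyz2, the gene of lysozyme, stood at 12098 CPM in WT and 17737 CPM in Batf3-/- C15 cells, against 3630 and 3107 CPM in cDC2b. Csf1r, the growth factor receptor of monocytes and macrophages, stood at 445 (407 to 485) and 450 CPM (389 to 517), against 168 and 163 CPM. Cx3cr1, the fractalkine receptor, stood at 238 and 287 CPM, against 89.5 and 78.5 CPM. All 3 markers were higher in C15 than in cDC2b in both libraries, with log2 ratios of 1.74 and 2.51 for Lyz2, 1.40 and 1.46 for Csf1r, and 1.41 and 1.87 for Cx3cr1. Summed levels of these markers were also present in cDC2b, so they separate the cells by amount, but the sums do not describe the typical cDC2b cell. The median cDC2b cell had 0.0435% of its UMIs on Lyz2 in WT and 0.0265% in Batf3-/-, beside 0.805% and 1.14% in C15. For Csf1r the medians were 0.0117% and 0.0107% in cDC2b, beside 0.0503% and 0.0426% in C15. The Cx3cr1 median was 0 in cDC2b cells of both libraries, beside 0.0254% and 0.0236% in C15.

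Lyz2 gave at least 1 UMI in all 197 C15 cells, beside 76.3% of WT C2 cells and 82.8% of the WT cells of C4, the resting cDC1 cluster. Because depth differed between clusters, shares were also taken after thinning each cell to 1000 UMIs. The Lyz2 shares were then 95.2% and 98.1% in C15, 45.3% and 39.8% in C2, 36.2% and 33.7% in C11 and 23.5% in WT C4. Csf1r did so in 131 of 145 WT cells (90.3%) and 49 of 52 Batf3-/- cells (94.2%), and in 61.3% and 60.4% of cDC2b cells. After thinning a Csf1r UMI was found in 50.3% of WT and 38.5% of Batf3-/- C15 cells and in 13.1% and 14.7% of C2 cells. In C11 the share was 20.5% and 15.9%. In the WT cells of C4 the share was 0.545%. For Cx3cr1 the thinned shares were 25.5% and 23.1% in C15, 7.22% and 6.97% in C2, and 10.8% and 6.10% in C11. They were 0.409% and 0.508% in C0, a cDC2a cluster. In C0 the thinned Csf1r shares were 1.48% and 3.01%. The C15 shares of both genes were above those given for C4 and C0, and the part of free RNA in the latter was not tested. Median depths before thinning were 6151 and 8056 UMIs in C15, 15398.5 in WT C4 and 6648 in WT C0.

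By summed levels Cebpb, the gene of C/EBPβ, separated C15 more widely than the 3 label markers did. It stood at 1449 CPM (1380 to 1520) in WT and 1234 CPM (1132 to 1343) in Batf3-/- C15 cells, and at 67.4 and 47.3 CPM in cDC2b. The log2 ratios were 4.43 and 4.71. Each of the 145 WT and 52 Batf3-/- cells of C15 had a Cebpb UMI, beside 319 of 1130 and 443 of 1771 cDC2b cells. At 1000 UMIs per cell the share was 71.0% and 67.3% in C15, 4.78% and 4.47% in C2, 10.8% and 6.91% in C11, and 1.04% in WT C4.

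**Figure D1:**
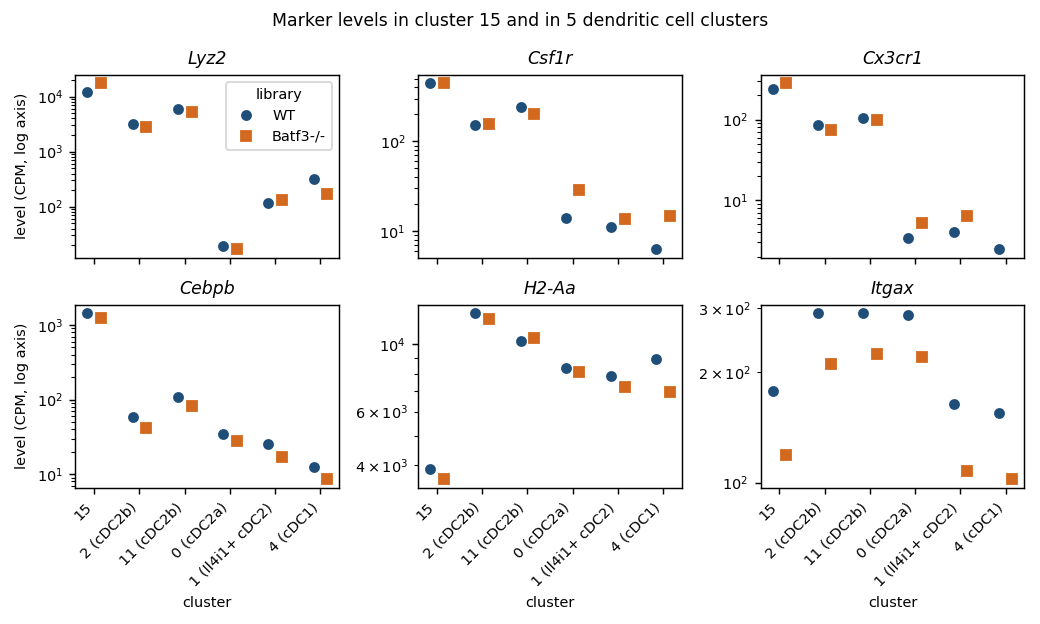
Levels of Lyz2, Csf1r, Cx3cr1, Cebpb, H2-Aa and Itgax in C15 and 5 DC clusters (x axis), with 1 point per library and a logarithmic y axis in CPM of summed UMIs. C15 stands highest for the first 4 genes, at 1449 and 1234 CPM for Cebpb, and lowest for H2-Aa, at 3894 and 3589 CPM; Cx3cr1 had no UMI in Batf3-/- C4 and no point is drawn.

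The authors' SingleR run, which matches each cell to reference profiles, called 175 of the 197 cells monocytes (129 WT and 46 Batf3-/-). It called 14 cells DCs, 7 neutrophils and 1 a stem cell. C15 therefore held cells with other labels, and its programmes were located by clustering C15 alone.

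Clustering of the 197 cells gave 5 sub-clusters, S1 to S5. Their leading genes defined them and are given as a description. S3 met the rule for a classical monocyte-like name, since all 9 classical markers stood above the rest of C15 and 8 of them reached 50 CPM. By the same measure S5 met a cDC1-like name, with all 6 cDC1 markers above the rest and at 50 CPM or more. S5 and the other sub-clusters are still given by number.

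S1 was the most numerous in WT and over both libraries, but not in Batf3-/-, with 58 WT cells (40.0% of WT C15, 95% interval 32.0 to 48.5) and 14 Batf3-/- cells (26.9%, 15.6 to 41.0). All 12 nonclassical markers were above the rest and reached 50 CPM there. S1 keeps its number because its leading genes by fold (Camp, Ngp, Elane, Ltf) are neutrophil granule genes carried by a few cells, which are described further on. Without those cells S1 had 1051 CPM of Nr4a1, 729 CPM of the angiotensin-converting enzyme gene Ace and 861 CPM of the fatty acid-binding protein gene Fabp4. Its Ly6c2 level was 40.3 CPM. The median depth was 3908 UMIs per cell.

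S3 held 20 WT cells (13.8% of WT C15, 8.63 to 20.5) and 15 Batf3-/- cells (28.8%, 17.1 to 43.1). Ly6c2 stood at 1899 CPM, Ccr2 at 1207 CPM, the coagulation factor gene F13a1 at 786 CPM and the fibronectin gene Fn1 at 803 CPM. Lyz2 reached 45172 CPM, the highest of the 5 sub-clusters, whereas Nr4a1 was at 282 CPM and Fabp4 at 6.95 CPM. F13a1 and Fn1 had no UMI in the other sub-clusters, the cells with neutrophil genes included. All 35 S3 cells were SingleR monocytes.

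S4 had 21 WT cells (14.5% of WT C15) and 6 Batf3-/- cells (11.5%). It joined nonclassical genes with MHC class II, with 831 CPM of Nr4a1, 633 CPM of Ace, 6259 CPM of H2-Aa and 424 CPM of Itgax, the gene of CD11c. Of the 12 nonclassical markers 10 stood above the rest of C15 in S4. All 8 macrophage markers did so as well, at 447 against 100 summed CPM, but only 2 of them reached 50 CPM. The first leading gene of S4, Cd209d, came from a single cell that held 18 UMIs, and the next, C1qa, had 10 UMIs in 3 cells. No doublet was called in S1, S3 or S4.

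S2 and S5 carried DC programmes beside the monocyte one. S2, with 21 WT (14.5%) and 16 Batf3-/- cells (30.8%), was led by Prnp, Tcf7, Slco5a1, Tnfrsf4, Ccr7, Fscn1, Cacnb3 and Socs2, genes of mature DCs. Ccr7, the receptor for migration to T cell zones, stood at 423 CPM in S2 and at 831 and 930 CPM in the WT and Batf3-/- cells of C1, the mature cDC2 cluster. Over 13 mature DC genes the S2 level had a median of 39.5% of the C1 level (range 30.7 to 89.9). Over 23 nonclassical monocyte genes it had a median of 51.8% of the S1 level. Doublets were called in 7 of the 37 S2 cells (18.9%), beside 5.03% of C1 and 0.517% of cDC2b cells. SingleR called 30 of the 37 S2 cells monocytes.

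S5, with 25 WT cells (17.2%) and 1 Batf3-/- cell (1.92%), was led by Gcsam, Xcr1, Rab7b, 2310031A07Rik, Pdia5, Tlr11, Cadm1 and Snx22, most of them cDC1 genes. SingleR called 19 of its 26 cells monocytes. Over 17 cDC1 genes the S5 level had a median of 68.2% of that in WT C4 (range 57.5 to 89.3). Its nonclassical genes had a median of 30.7% of the S1 level, and Cebpb stood at 635 CPM in S5 beside 12.4 CPM in WT C4. The median depth was 17306 UMIs per cell, the highest of the sub-clusters, and doublets were called in 6 of the 26 cells (23.1%), beside 10.9% of WT C4 cells. In C15 as a whole the 13 called doublets thus lay in S2 and S5, and the part of doublets in these sub-clusters was not tested.

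**Figure D2:**
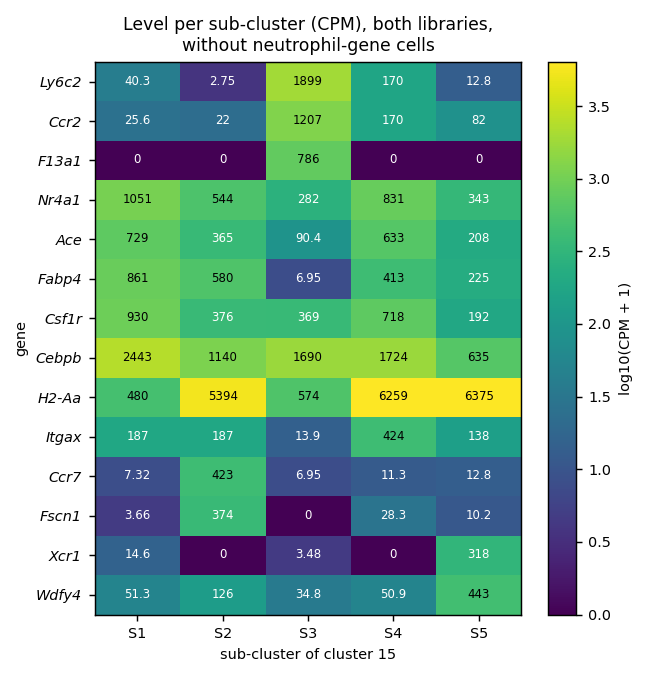
Levels of 14 monocyte and DC genes (rows) in the 5 sub-clusters of C15 (columns), both libraries summed and the cells with neutrophil genes left out. Each cell prints the CPM and is coloured by log10 of CPM plus 1; S3 stands apart by Ly6c2 at 1899 CPM, S2 by Ccr7 at 423 CPM and S5 by Xcr1 at 318 CPM.

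Neutrophil transcripts sat in 9 cells, 7 WT and 2 Batf3-/-, of which 8 were in S1 and 1 in S5. Each of them had at least 2.81% of its UMIs on the 12 neutrophil genes, up to 53.1%, while the next cell had 0.0635%. A total of 120 of the 197 cells had none. The 9 cells held 99.7% of the 26950 UMIs of the list in C15. Through them the cluster level of the granule gene Camp was 1732 CPM in WT and 5516 CPM in Batf3-/-, and that of S100a9, an alarmin of neutrophils and classical monocytes, was 5451 and 11428 CPM.

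Because of these findings the comparisons of gene levels were also run on trimmed C15, which leaves out S2, S5 and the 9 cells. It kept 126 cells, 93 WT (0.761% of the library) and 33 Batf3-/- (0.272%). This trimming was chosen after the data had been seen. S2 and S5 were left out for their DC genes and the 9 cells for their neutrophil genes. Lower levels of such genes in trimmed C15 than in all of C15 were therefore set by the choice of cells.

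C15 was compared with cDC2b within each library. A gene was counted as higher or lower where the ratio was at least 2-fold the same way in both libraries. Of 2812 genes that passed the filter on level, 189 were higher (6.72%) and 43 were lower (1.53%). In trimmed C15, 296 of 2909 genes were higher (10.2%) and 99 were lower (3.4%). The median log2 ratio over all genes that passed was 0.11 in WT and 0.14 in Batf3-/- for all of C15, and 0.18 and 0.22 for trimmed C15. A gene found only in C15 passes the filter through C15, so the counts over lists that follow are descriptions.

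**Figure D3:**
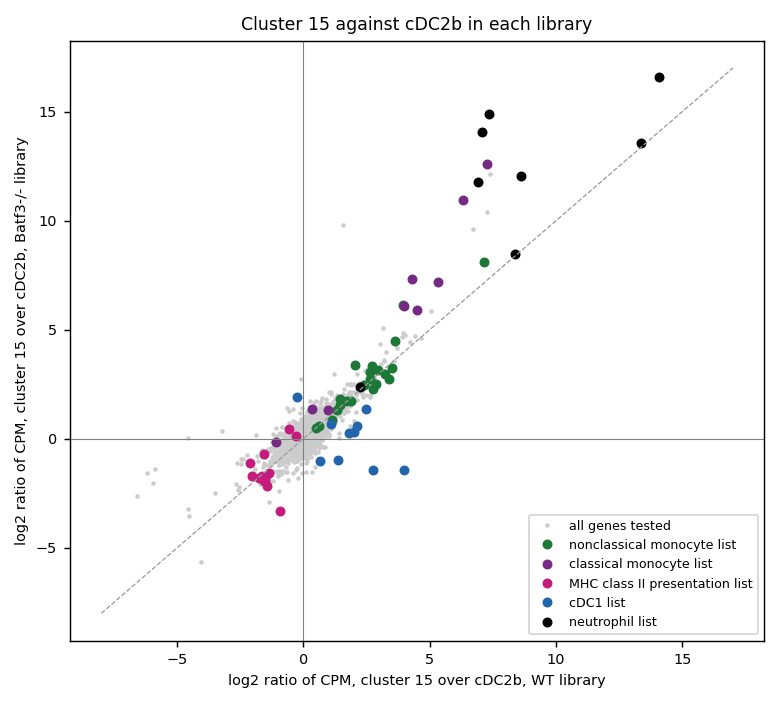
Log2 ratio of C15 over cDC2b in the WT library (x axis) and in the Batf3-/- library (y axis) for the 2812 genes that passed the filter, with gene lists in colour. Points in the upper right corner are the 189 genes at least 2-fold higher in both libraries, and the cDC1 genes apart from Batf3 lie below the diagonal.

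Of the 26 genes of the monocyte core list 24 passed the filter and 10 were higher, with median log2 ratios of 0.78 and 1.01. Beside Lyz2, Csf1r, Cx3cr1 and Cebpb these included the low-affinity IgG receptor gene Fcgr3 at 157 and 222 CPM against 44.6 and 49.5 CPM. Cd68, a lysosomal glycoprotein of macrophages, was at 294 and 289 CPM against 256 and 236 CPM, under 2-fold.

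Nonclassical monocyte genes formed the broadest group above cDC2b. Of the 24 genes of the list 22 passed the filter, 19 were higher and 0 were lower, with median log2 ratios of 2.65 and 2.64. Nr4a1 stood at 599 CPM in WT and 415 CPM in Batf3-/- C15 cells and at 181 and 124 CPM in cDC2b (log2 ratios 1.72 and 1.74). Ace stood at 373 and 296 CPM against 47.7 and 33.3 CPM (2.97 and 3.15). Fabp4 gave 421 and 291 CPM against 2.98 and 1.06 CPM (7.15 and 8.10), and after thinning no C2 cell of either library had a Fabp4 UMI, while 33.1% of WT and 21.2% of Batf3-/- C15 cells did. At that depth a count of 0 allows up to 0.318% and 0.197% of C2 cells with a UMI. Without thinning, 6 of 942 and 8 of 1520 C2 cells had one. In C11 a Fabp4 UMI was found in 1 of 185 WT and 0 of 246 Batf3-/- cells after thinning. Without thinning it was found in 5 of 188 and 8 of 251 C11 cells. The IgG receptor gene Fcgr4 (191 and 177 CPM), the sialophorin gene Spn (291 and 229 CPM) and the scavenger receptor gene Cd36 (148 and 126 CPM) were also at least 2-fold above cDC2b in both libraries. Stap1, Hes1 and Cd9 passed the filter without reaching 2-fold in both, with log2 ratios of 0.63 and 0.57 for Stap1.

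Classical monocyte genes were above cDC2b through fewer cells. Of 18 list genes 9 passed the filter and 6 were higher. Ly6c2 stood at 239 CPM (212 to 269) in WT and 917 CPM (830 to 1012) in Batf3-/- C15 cells, against 15.3 and 13.4 CPM in cDC2b. Chil3, the gene of a chitinase-like protein, stood at 646 and 702 CPM against 4.17 and 0.112 CPM, the latter being 2 UMIs. The 9 cells with neutrophil genes held 399 of the 740 WT and 215 of the 306 Batf3-/- UMIs of Chil3, and in trimmed C15 it stood at 647 and 402 CPM. The haptoglobin gene Hp stood at 294 and 443 CPM, F13a1 at 132 and 172 CPM, and Fn1 at 148 and 140 CPM. Ccr2 is expressed by cDC2b as well, and its log2 ratio was 0.33 in WT and 1.35 in Batf3-/-. In trimmed C15 the ratio was 1.31 and 2.22, at least 2-fold in both libraries.

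The balance of both programmes varied between cells. The summed classical genes exceeded the summed nonclassical genes in 44 of 197 cells, 27 WT (18.6%) and 17 Batf3-/- (32.7%), which included all 35 S3 cells. Of the other 9 cells 6 were cells with neutrophil genes, and in trimmed C15 the count was 38 of 126. Across the 197 cells the UMI shares of both lists had a Pearson r of -0.53 and a Spearman rho of -0.40. Inside S1 they were -0.61 and -0.40, inside S4 -0.34 and -0.15, inside S3 -0.036 and -0.026, inside S2 0.049 and 0.0057, and inside S5 0.43 and 0.085. The cells with neutrophil genes are part of these values, 8 of them in S1. One of those had 2.04% of its UMIs on classical and 0.42% on nonclassical genes, so the S1 values do not describe its monocytes alone. The cells share 2 libraries and both shares have the same total, so this is a description.

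**Figure D4:**
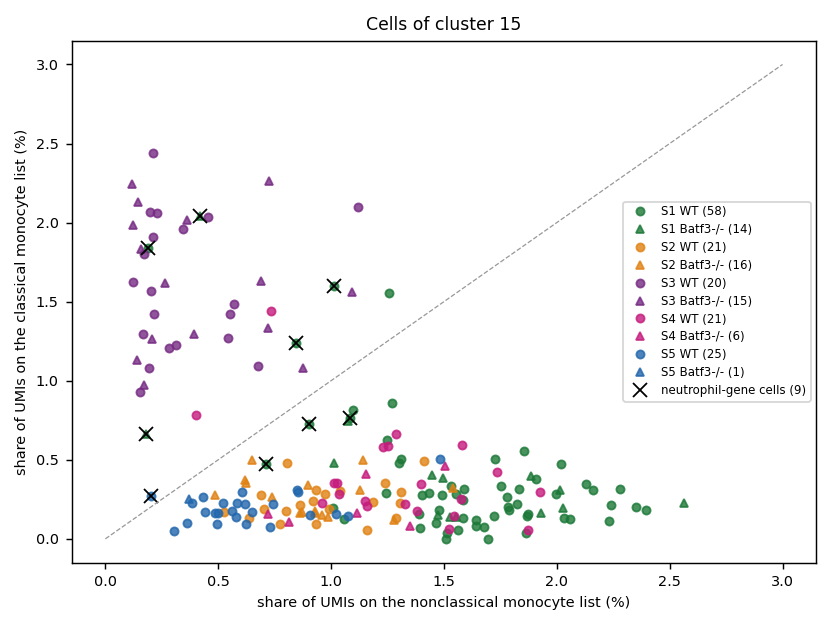
Each point is 1 C15 cell, with the percent of its UMIs on nonclassical genes on the x axis and on classical genes on the y axis; colours mark sub-clusters, shapes libraries and crosses the 9 cells with neutrophil genes. The classical genes exceed the nonclassical ones in 44 of the 197 cells, among them all 35 of S3.

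Promoters of both programmes were read from RefSeq on GRCm38.p6, as 250 bases before and 50 after the gene start. The motifs searched on both strands were GAGGAA, bound by the monocyte factor PU.1, TTGCNNAA of the C/EBP family, and AAAGGTCA of Nr4a1. Of the 189 genes higher in C15, 142 had a promoter in the table. These genes include granule genes of the 9 cells. GAGGAA was in 53 of the 142 (37.3%), in 28.6% of the 2261 promoters of genes that passed the filter, and in 28.3% of all 27025. TTGCNNAA was in 22 (15.5%), beside 9.38% and 10.8%. AAAGGTCA was in 2 (1.41%), beside 1.15% and 1.46%. None of the 3 was in the promoters of Lyz2, Cx3cr1, Cebpb or Nr4a1. The table holds 2 promoters each for Ace and F13a1, and the one with more matches is shown as 1 example of each programme. These are Ace (chr11:105967698-105967997, plus strand) and F13a1 (chr13:37050195-37050494, minus strand), with GAGGAA or its reverse complement in capitals. Each holds 2 matches, while the other promoter holds 0 for Ace and 1 for F13a1. A match describes letters, not binding.
Ace: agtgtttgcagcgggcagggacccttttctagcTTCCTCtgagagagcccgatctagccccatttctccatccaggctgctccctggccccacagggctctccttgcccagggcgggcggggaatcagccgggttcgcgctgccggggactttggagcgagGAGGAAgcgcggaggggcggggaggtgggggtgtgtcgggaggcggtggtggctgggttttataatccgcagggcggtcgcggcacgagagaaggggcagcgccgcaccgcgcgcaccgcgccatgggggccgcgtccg
F13a1: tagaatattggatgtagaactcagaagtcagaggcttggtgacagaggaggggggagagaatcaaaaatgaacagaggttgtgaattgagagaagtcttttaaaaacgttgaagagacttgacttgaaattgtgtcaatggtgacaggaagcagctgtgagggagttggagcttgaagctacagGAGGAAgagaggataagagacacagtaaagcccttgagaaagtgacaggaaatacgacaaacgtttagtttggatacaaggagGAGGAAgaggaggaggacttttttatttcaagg

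MHC class II was the main group below cDC2b. Of the 14 genes of class II presentation 13 passed the filter, 9 were lower and 0 were higher, with median log2 ratios of -1.54 and -1.71. H2-Aa stood at 3894 and 3589 CPM in C15 and at 12217 and 11890 CPM in cDC2b (log2 ratios -1.65 and -1.73). Its partner chain H2-Ab1, the invariant chain Cd74 and the class II transactivator Ciita were lower too, Ciita with 165 and 108 CPM against 479 and 414 CPM. Ctss, the cathepsin that trims the invariant chain, was not, with log2 ratios of -0.29 and 0.11.

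Class II levels varied widely among C15 cells. The 4 genes H2-Aa, H2-Ab1, H2-Eb1 and Cd74 took a median of 0.618% of the UMIs of a WT cell (range 0.0276 to 7.20) and 0.407% of a Batf3-/- cell, beside 6.66% and 6.30% in cDC2b. By sub-cluster the WT and Batf3-/- medians were 0.220% and 0.148% in S1 and 0.0916% and 0.0610% in S3. They were 2.05% and 2.95% in S2, 3.18% and 2.81% in S4, and 3.75% and 3.51% in S5, whose Batf3-/- value is 1 cell. The cells with neutrophil genes are left out of these medians, so S1 is 52 and 12 cells. The cells were sorted as MHCII+, yet S1 and S3 had few class II transcripts. Whether their cells carried MHCII protein or passed the sort as impurities was not tested. None of the 11 class I presentation genes that passed the filter moved 2-fold, and H2-K1 was at 2512 and 3018 CPM against 2462 and 2105 CPM.

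Genes of cDC2 and pan-DC identity were mostly lower or near cDC2b. Of 20 cDC2 and pan-DC genes 10 passed, 4 were lower and 1 was higher. Cd209a, a C-type lectin of cDC2b, stood at 25.3 and 50.5 CPM against 596 and 474 CPM (log2 ratios -4.56 and -3.23), and Cd7, Bcl11a and Kmo were the other 3. The gene above was Klf4, which monocytes also use, at 571 and 507 CPM against 214 and 186 CPM. Flt3, the DC growth factor receptor, had log2 ratios of -0.98 and -1.20, and -2.36 and -3.61 in trimmed C15. Itgax fell by 0.71 and 0.84 on the log2 scale, so less than 2-fold. In trimmed C15, 7 of 10 genes of the list were lower and 1 was higher, with median log2 ratios of -1.75 and -1.66. Trimming left S2 and S5 out for their DC genes, so the further fall of this list and of Flt3 tests nothing.

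Among 46 transcription factors 33 passed, 6 were higher and 2 were lower. The 6 were Cebpb, Nr4a1, Klf2, Klf4, Pou2f2 and Irf8, and the 2 were Bcl11a and Runx3. Klf2, a regulator of nonclassical monocytes, stood at 1020 and 910 CPM against 409 and 370 CPM. Irf8, needed for cDC1 and for monocyte progenitors, stood at 709 and 296 CPM against 128 and 116 CPM. Its level in S5 was 1573 CPM, and in trimmed C15 the log2 ratios were 1.07 and 1.38. Spi1, which encodes PU.1, differed little (log2 ratios 0.20 and 0.33).

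Several adhesion and Fc receptor genes were also above cDC2b. Of 13 adhesion genes that passed 6 were higher. Itgal, the alpha chain of LFA-1, stood at 672 and 553 CPM against 58.4 and 59.0 CPM (3.52 and 3.23), and Itgam, which encodes CD11b, stood at 142 and 188 CPM against 53.7 and 54.4 CPM. Of 13 Fc receptor and complement genes that passed 5 were higher and 3 were lower. C3 gave 110 and 131 CPM against 15.6 and 16.3 CPM. C1qa and C1qb were lower, at 7.85 and 10.5 CPM in WT C15 against 180 and 172 CPM. That difference rested on C11, where WT C1qa was at 986 CPM, since it was at 6.03 CPM in WT C2.

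Lipid genes and the phagocyte oxidase moved in part. Of 10 lipid and scavenger genes that passed 6 were higher, among them Apoe at 1739 and 1878 CPM against 321 and 217 CPM, the lipid droplet gene Plin2 (log2 ratios 2.30 and 2.14) and the endocytic receptor gene Lrp1 (2.02 and 2.52). All 6 oxidase genes passed and only Cybb, the catalytic subunit, reached 2-fold in both libraries, at 1178 and 1353 CPM against 526 and 530 CPM. Of 20 lysosomal genes that passed 3 were higher, namely Lyz2, Ctsb and Lamp2.

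A minority of cytokine receptors stood above cDC2b. Of 15 growth factor receptors that passed 4 were higher: Csf1r, Csf3r, Il17ra and Tnfrsf1b. Tnfrsf1b, the second TNF receptor, stood at 260 and 333 CPM against 46.4 and 38.0 CPM. The survival gene Bcl2 stood at 102 and 82.6 CPM against 19.2 and 15.2 CPM, 1 of 11 survival genes that passed. Of 11 cytokine and chemokine genes only Ccl6 was higher, of 15 interferon-stimulated genes Ifi204 and Ly6e were, and of 11 inhibitory or costimulatory genes none was. In trimmed C15, 6 of 16 interferon-stimulated genes were higher, among them Ifitm3 (log2 ratios 1.14 and 1.59). Of 11 cytokine and chemokine genes 4 were lower there, among them Cxcl9 (-3.23 and -5.49). S2, which trimming left out, held 107 Batf3-/- and 0 WT UMIs of Cxcl9.

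Of the 10 cDC1 genes that passed only Irf8 was higher in both libraries, but the median log2 ratio of the list was 1.89 in WT and 0.28 in Batf3-/-. In trimmed C15 it was 0.21 and 0.97 over 7 genes. All 8 neutrophil genes that passed were higher, and in trimmed C15 only Csf3r passed. The smaller lists gave few calls in C15 as a whole. Of 5 genes of the Ms4a and Tmem176 list that passed 1 was lower, Tmem176a, at 195 and 502 CPM against 1085 and 1115 CPM. Of 11 S100 and annexin genes 4 were higher: Anxa1, Anxa2, S100a8 and S100a9. The last pair came from the neutrophil-gene cells, and trimmed C15 held 1 WT and 0 Batf3-/- UMIs of S100a8 and 0 and 1 of S100a9, too few for a ratio. In WT cDC2b the cell with the highest share had 12.7% of its UMIs on neutrophil genes. Of 12 metabolic genes Eno3 and Pgd were higher, and of 7 chemoattractant receptors Cx3cr1 and Cxcr4 were. Neither of 2 Toll-like receptor pathway genes nor any of 3 plasmacytoid DC genes moved, and no lymphocyte gene reached the filter. Of 4 red pulp macrophage genes that passed, C1qa and C1qb were lower and Treml4, which is also on the nonclassical list, was higher. In trimmed C15, 6 of 15 metabolic genes were higher and 1 was lower. Of 6 chemoattractant receptors 4 were higher and 1 was lower there.

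By size of the ratio, the 10 highest genes were Camp, Ngp, Lcn2, Ltf, Wfdc21, S100a8, Chil3, Prtn3, Fabp4 and S100a9. The 10 lowest were C1qb, C1qa, Cd209a, Hbb-bs, Mmp12, Bex6, Clec4b1, Klrd1, Hbb-bt and H2-Eb1. Most of the 10 highest were granule genes of the 9 cells. In trimmed C15 they were S1pr5, Fabp4, Chil3, Hp, Mgst1, Fn1, Smpdl3b, F13a1, F10 and Cebpb. S1pr5, a sphingosine-1-phosphate receptor of nonclassical monocytes, stood at 109 and 94.9 CPM there, against 0.298 and 0.168 CPM in cDC2b.

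Surface tags were not used to build the clusters. The 11 tag rows carry no names, and 3 were matched to an antibody through the correlation with its gene. For the row taken as CD11B the median was 94 counts in WT and 73 counts in Batf3-/- C15 cells, 75 and 63 counts in cDC2b, and 51 and 45 counts in C0. The CD11B row was matched after the data had been seen. The CD4 median was 29 and 31 counts in C15 and 33 and 33 in cDC2b. The CD8A median was 47 and 45 counts in C15 and 41 and 41 in cDC2b, while the WT cells of S5 were at 86 and WT C4 at 122 counts. The match held both ways, row to gene and gene to row, in both libraries for CD4 and CD8A, but for CD11B only in Batf3-/-, since in WT the best gene of that row was Sirpa. The row was also the best one for F4/80 (Adgre1) in both libraries, in WT with an r of 0.262 beside 0.261 for Itgam, so it may be another antibody of the panel. The row was picked through Itgam, so the CD11B values are no independent support for that transcript.

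Batf3-/- and WT cells of C15 were compared next. Batf3 itself had 138 UMIs in 49 of 145 WT cells (120 CPM, 101 to 142) and 2 UMIs in 2 of 52 Batf3-/- cells (4.59 CPM, 0.555 to 16.6). In cDC2b it stood at 145 CPM in WT and 1.23 CPM in Batf3-/-, so the libraries matched their labels. In trimmed C15 Batf3 had 29 UMIs in 15 WT cells (56.2 CPM) and 0 in Batf3-/- cells.

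Of 2813 genes, 45 were at least 2-fold higher (1.6%) and 26 at least 2-fold lower (0.924%) in Batf3-/- C15 cells, and 90% of the genes lay between log2 ratios of -0.54 and 0.66. In trimmed C15, 57 of 2851 genes were higher (2%) and 53 lower (1.86%). These counts rest on 1 library on each side and carry no replicate error.

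The lower genes were led by cDC1 genes. Of the 10 cDC1 genes that passed, 9 were lower in Batf3-/- cells, a count that includes the deleted Batf3 itself. Xcr1, Cd8a, Batf3 and Clec9a passed the filter through their WT level, so that count had to hold them. Xcr1, the chemokine receptor of cDC1, had 147 UMIs in 26 WT cells and 1 UMI in 1 Batf3-/- cell (128 and 2.29 CPM). Cd8a had 142 UMIs in 30 WT cells and 2 UMIs in 2 Batf3-/- cells, Clec9a stood at 93.3 and 9.17 CPM, and Naaa at 328 CPM (296 to 363) and 66.5 CPM (44.5 to 95.5). The same log2 ratio of Naaa was -2.48 in the plasmacytoid cluster C14, -1.36 in C11, -0.84 in C0 and -0.68 in C2. That of Xcr1 was -4.78 in C14 (41 WT UMIs and 1 Batf3-/- UMI), -0.71 in C11, -0.39 in C0 and -0.23 in C2.

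Most of these cDC1 transcripts lay in S5, which had 25 WT cells and 1 Batf3-/- cell. Trimming left S5 out for its cDC1 genes, so the loss of calls was set by the choice of cells and tests nothing. In trimmed C15, 5 cDC1 genes passed and 0 were lower, with Naaa at 149 CPM in WT and 104 CPM in Batf3-/-. Xcr1, Cd8a, Clec9a and Batf3 no longer passed. Of the genes then under the filter, Cd8a had 16 UMIs in 6 WT cells, 9 of them in 1 cell, and none in Batf3-/- cells, Clec9a had 5 and 0 UMIs, and Xcr1 had 4 and 1. At 3 counts as the floor, the 33 Batf3-/- cells allow up to 13.6 CPM for a gene with no UMI.

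**Figure D5:**
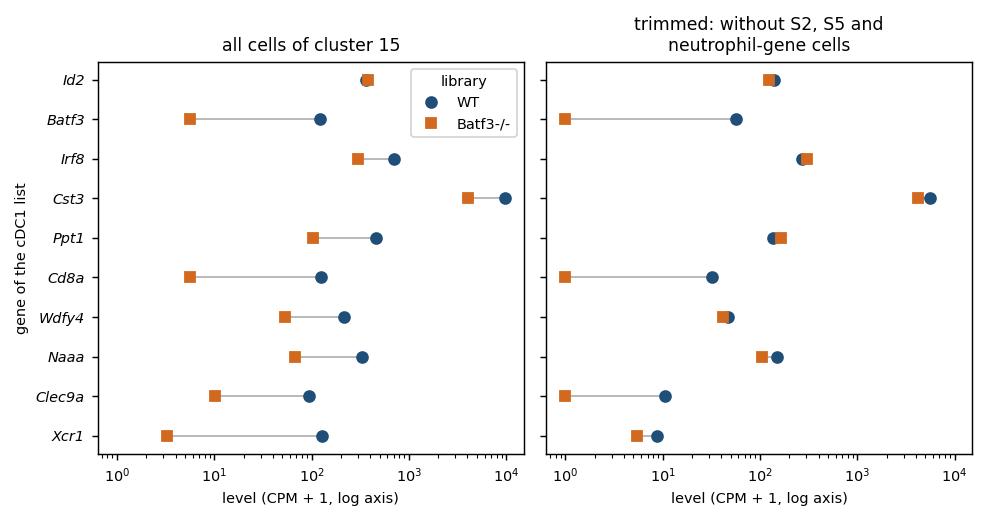
Levels of 10 cDC1 genes in WT and Batf3-/- cells of all of C15 (left) and of trimmed C15 (right), on a logarithmic x axis of CPM plus 1. Trimming left S5 out for its cDC1 genes. In all of C15 the WT point stands to the right for 9 of the 10 genes, the deleted Batf3 among them. Xcr1, for example, is at 128 and 2.29 CPM there. In trimmed C15 the points of Naaa are at 149 and 104 CPM. Those of Batf3, Cd8a and Clec9a remain apart, with no UMI in Batf3-/- cells and, for Clec9a, 5 UMIs in WT cells.

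The highest genes in Batf3-/- C15 were Mpo, Elane, Prtn3, H2-M2 and Fcnb. Of these Mpo, Elane, Prtn3 and Fcnb encode granule proteins of neutrophil precursors and came mainly from single cells. For each of them 1 cell held most UMIs, all 66 of Mpo, 251 of 252 of Elane, 193 of 199 of Prtn3 and 51 of 57 of Fcnb. H2-M2, a nonclassical class I gene, had its 42 UMIs in 5 cells of S2.

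Among monocyte genes Ly6c2 had the largest ratio of those higher in Batf3-/- cells, at 917 CPM in Batf3-/- and 239 CPM in WT (log2 ratio 1.94, 1.72 to 2.17). It was detected in 19 of 52 and 30 of 145 cells. Within S3 it stood at 2686 CPM in 15 of 15 Batf3-/- cells and 1270 CPM in 19 of 20 WT cells, and S3 made up 28.8% and 13.8% of C15. The higher cluster level thus moved with both the share of S3 and the level in its cells. As a share of all cells of the library S3 was 0.164% (20 of 12224 cells) in WT and 0.124% (15 of 12119 cells) in Batf3-/-, with overlapping intervals. S1 was 0.474% (0.360 to 0.613) and 0.116% (0.0632 to 0.194), intervals that do not overlap but that hold no spread between mice.

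No nonclassical gene moved 2-fold in C15 as a whole (23 passed). Nr4a1 had 599 CPM in WT and 415 CPM in Batf3-/-, Ace 373 and 296 CPM, and the median log2 ratio of the list was -0.27. Class II presentation genes gave 0 calls among 11, and the monocyte core list 0 among 26, with Csf1r at 445 and 450 CPM. These sums mix the sub-clusters differently, since S5 held 390396 of the 1146370 UMIs in WT and 18594 of 436038 in Batf3-/-. In trimmed C15 the median cell had 0.0690% of its UMIs on Csf1r in WT and 0.0570% in Batf3-/-. Apart from Ly6c2, the classical list gave 1 call among 10, S100a4, at 712 and 1548 CPM. Of 11 S100 and annexin genes 4 were higher, S100a4, S100a8, S100a9 and Anxa3. The cells with neutrophil genes held nearly all UMIs of S100a8 and S100a9, and in trimmed C15 only S100a10 of 9 genes was higher, at 271 CPM in WT and 551 CPM in Batf3-/-.

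In trimmed C15, 2 of 23 nonclassical genes were lower in Batf3-/- cells and the median log2 ratio of the list was -0.58. They were the eosinophil-associated ribonuclease gene Ear2, at 663 CPM in WT and 294 CPM in Batf3-/- (-1.17, -1.58 to -0.79), and Spn, at 380 and 185 CPM (-1.04, -1.56 to -0.54). The trimmed libraries mix sub-clusters differently, since S3 made up 15 of 33 Batf3-/- and 20 of 93 WT cells. Ear2 was low in S3, at 68.8 CPM in WT and 47.0 CPM in Batf3-/-, and without the cells with neutrophil genes it stood at 883 and 988 CPM in S1. In S4 it stood at 1009 CPM in 21 WT cells and 276 CPM in 6 Batf3-/- cells. The direction of the genotype ratio thus differed between S1 and S4, and the part of this mix in the trimmed ratios was not tested. Of 26 monocyte core genes 2 were lower, of 9 class II presentation genes none moved 2-fold, and of 11 classical genes only Ly6c2 was higher.

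In trimmed C15 the 5 highest genes in Batf3-/- cells were Trem2, Ccl4, Stxbp6, Slirp and Oasl2. Trem2, a lipid-sensing receptor of macrophages, had 24 UMIs in 10 of 33 Batf3-/- cells and 6 UMIs in 6 of 93 WT cells (108 and 11.6 CPM). All 10 of these Batf3-/- cells were in S3, where 10 of 15 Batf3-/- and 3 of 20 WT cells had a Trem2 UMI. Ccl4 had 14 of its 27 UMIs in 1 cell, and its log2 ratio was 2.98 in trimmed C15 and 0.32 in all of C15. The lowest were Bhlhe40, Etv3, Cited4, Cpne3 and Ino80d. Bhlhe40, a transcription factor of activated myeloid cells, stood at 27.1 CPM in 6 of 33 Batf3-/- cells and 136 CPM in 38 of 93 WT cells. Over all of C15 Bhlhe40 was at 112 CPM in Batf3-/- and 120 CPM in WT (log2 ratio -0.09). Etv3 turned there, at 172 and 115 CPM (0.58, 0.15 to 1.00), beside 18.1 and 87.2 CPM in trimmed C15.

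Within S3 the classical genes Chil3, Fn1 and Ccr2 had lower levels in Batf3-/- cells, unlike Ly6c2, though the intervals of Ccr2 overlapped. Chil3 stood at 1914 CPM in WT and 689 CPM in Batf3-/-, Fn1 at 1063 and 478 CPM, and Ccr2 at 1301 (1130 to 1490) and 1088 CPM (915 to 1285). Of the 306 WT UMIs of Chil3, 99 were in 1 cell. H2-Eb1 was at 1001 and 125 CPM, but 106 of its 160 WT UMIs were in 1 cell. These values come from 20 and 15 cells.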

How the data were processed

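Sorted splenic cells of 1 WT and 1 Batf3-/- library were measured by CITE-seq. The authors ran Cell Ranger on GRCm38 (mm10), evened sequencing depth between libraries, filtered cells on gene number and on mitochondrial and ribosomal shares, and clustered in Seurat 3.0.5. The deposited raw tables hold counts of UMIs per gene or tag and cell. The deposited normalized tag tables hold the centered log ratio, a natural log, and were used to match tag rows to genes. Mitochondrial and ribosomal shares were deposited as a fraction of UMIs. Clusters, SingleR labels and phases are deposited labels.

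From the counts, levels (CPM) with exact Poisson intervals, log2 ratios with intervals from the binomial split, and shares with Clopper-Pearson intervals were computed at 95%. Genes needed a mean of at least 50 CPM and 20 UMIs. A level of 0 was read against a floor of 3 counts. Doublets were called with Scrublet (scanpy 1.11.5, expected rate 0.1, where it marked 541 WT and 244 Batf3-/- cells; at 0.05 it marked 461 and 0). Sub-clusters came from Leiden clustering (leidenalg 0.10.2) at resolution 0.5 on 1000 variable genes and 10 components. Python 3.11.15, numpy 2.4.6, scipy 1.17.1 and pandas 2.3.3 were used. On simulated data with 2467 genes, 100 of 100 raised and 100 of 100 lowered 4-fold genes were called, and 0 unchanged ones. The simulated counts had no spread between cells or libraries, so this checks the calculation and not the rate of false calls in these data.

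The cells, gene lists and comparisons were chosen with earlier results of these data known. Named genes are list members, the 10 highest and 10 lowest ratios of C15 over cDC2b, the 5 highest and 5 lowest between genotypes, Batf3, Naaa and the leading genes of sub-clusters; the extremes within trimmed C15 and the genes named within S3 were chosen after their values were seen. Of 432 list symbols 422 are in the files. Samples were grouped by genotype label. Alternatives were other totals, minimum levels, comparison clusters, cell filters, thinning depths, tag scales and clustering settings. The other 8 tag rows were not used here.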

Additional observations from a re-analysis of the deposited data

Results flagged for a closer look

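The genes named here had a log2 ratio of C15 over cDC2b of opposite sign in the WT and Batf3-/- libraries. With 1 library per genotype these differences were not tested. Higher in the Batf3-/- ratio were Ctsc, a protease that activates granule enzymes, by 1.26 (from -0.56 in WT to 0.71), the chemokine Ccl3 by 1.25, the lysosomal protease Lgmn by 1.02, the fatty acid-binding protein gene Fabp5 by 0.83, Bst2 by 0.75, Ms4a4c by 0.61, S100a6 by 0.58, Ms4a6c by 0.48 and the transcription factor Jun by 0.31. Lower were Wdfy4, needed for cross-presentation in cDC1, with a difference of -1.65 (0.64 in WT and -1.01 in Batf3-/-), and the chaperone Calr with -0.40. In trimmed C15 each of these genes had the same sign in both libraries, for example 0.23 and 1.31 for Ctsc in WT and Batf3-/-. The direction of the difference between libraries turned there for Fabp5 (-0.72 and -1.24), Calr (-0.48 and -0.27) and Wdfy4 (-1.56 and -1.38), and Jun was at 0.11 and 0.13. The trimming was chosen after the data had been seen.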

How the results depend on the processing

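No paired analysis was possible because each genotype is 1 library. The share of C15 became 1.67% in WT without cDC1 clusters in the denominator, and 0.761% and 0.272% (WT, Batf3-/-) in trimmed C15. Genes lower than in cDC2b became 82 with totals that leave out mitochondrial and ribosomal protein genes and 89 against C11 alone. Higher and lower genes became 344 and 91 at a minimum of 20 CPM, 1123 and 201 with no minimum, and 296 and 99 in trimmed C15. Between genotypes, lower genes became 41 with those totals and 53 in trimmed C15. Higher and lower genes became 28 and 16 in SingleR monocytes, 25 and 10 at 100 CPM, and 158 and 134 at 20 CPM. As a share of summed tags the Batf3-/- ratio of C15 over cDC2b became 2.54 for CD11B, 2.22 for CD8A and 1.92 for CD4, which turned the direction of CD4. Without 1 cDC2b cell that held 249562 tags the ratios were 2.19, 1.91 and 1.66. The CD8A ratio in trimmed Batf3-/- cells was 0.976, below 1. Cells with a Cx3cr1 UMI became 39.9% and 46.2% at 2000 UMIs and 73.1% and 80.8% without thinning.

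Log2 ratios over cDC2b turned against C2 alone for C1qa (0.38 in WT, 1.41 in Batf3-/-) and, in WT, for C1qb (0.44), Hbb-bs (0.081) and Hbb-bt (0.53). They turned in WT SingleR monocytes for S100a8 (-4.43) and S100a9 (-5.24), and in trimmed C15 for S100a8 (-3.58, from 1 UMI) in WT. Trimmed C15 had no UMI of S100a9 in WT or of Hbb-bt in Batf3-/-, so their ratios of -2.80 and 0.54, taken at the floor of 3 counts, are upper limits, and the second shows no turn. Apart from C1qa, which C2 and C11 hold at different levels, and from settings that remove cells or genes by construction, the cause was not tested. The genotype ratios rest on 52 Batf3-/- cells, in part on single cells with many UMIs, and no setting gives the spread between mice.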
